A study of Mus musculus with 15 samples.

Results

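The 9 transporters described here, Slc22a2, Slc22a4, Slc22a5, Slc22a6, Slc22a7, Slc22a8, Slc22a12, Slc22a13 and Slc22a19, belong to the solute carrier 22 family of organic anion and cation carriers. They were taken by gene symbol, and each had 1 probe set of its own among the 23521 probe sets with a single gene symbol, which cover 22180 genes. Their values come from whole kidney RNA of 8 Grhl1-/- mice (knockout, replicates 8 to 15) and 7 Grhl1+/+ mice (wild type, replicates 1 to 7), all aged about 6 months and measured on 1-colour expression arrays. Grhl1 is a transcription factor of the grainyhead family, which acts in epithelia. Which part of Grhl1 was deleted, the strain, the sex, the litter and the batch are not stated in the labels, and each array is taken as 1 mouse. Values are log2 RMA summaries of a probe set, and differences are on the same log2 scale.

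The proximal tubule clears drugs, toxins, urate and many metabolic wastes by carrying them from the blood across the basolateral membrane and then across the apical membrane into the urine. OAT1 (Slc22a6) and OAT3 (Slc22a8) take up organic anions from the blood in exchange for dicarboxylates, and OCT2 (Slc22a2) takes up organic cations along the membrane potential. On the apical side URAT1 (Slc22a12) and OAT10 (Slc22a13) exchange urate and other anions, and in rodents OAT5 (Slc22a19) carries steroid sulphates. OCTN2 (Slc22a5) recovers carnitine from the filtrate, OCTN1 (Slc22a4) carries ergothioneine, and OAT2 (Slc22a7) carries organic anions and cyclic nucleotides. Several of these genes are known to differ in level between male and female rodents.

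Slc22a6 and Slc22a8 are neighbours on chromosome 19, and Slc22a19 lies near them at the other end of a run of consecutive Slc22 genes. Promoters are shown for these 3 and for Slc22a12, elsewhere on chromosome 19, because these 4 genes differed among the kidneys in opposite directions. Each sequence is the 250 bases before the RefSeq gene start in build GRCm38.p6, written 5′ to 3′ on the gene's strand, at chr19:8617746-8617995 (plus strand) for Slc22a6, chr19:8592932-8593181 (plus strand) for Slc22a8, chr19:6543071-6543320 (minus strand) for Slc22a12 and chr19:7711311-7711560 (minus strand) for Slc22a19. Capitals mark matches to 3 motifs, searched on both strands and not overlapping one another.
Slc22a6: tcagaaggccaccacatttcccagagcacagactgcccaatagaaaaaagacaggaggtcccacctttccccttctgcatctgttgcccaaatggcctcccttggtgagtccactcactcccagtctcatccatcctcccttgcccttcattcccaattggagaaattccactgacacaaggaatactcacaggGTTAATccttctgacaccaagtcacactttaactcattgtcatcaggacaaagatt
Slc22a8: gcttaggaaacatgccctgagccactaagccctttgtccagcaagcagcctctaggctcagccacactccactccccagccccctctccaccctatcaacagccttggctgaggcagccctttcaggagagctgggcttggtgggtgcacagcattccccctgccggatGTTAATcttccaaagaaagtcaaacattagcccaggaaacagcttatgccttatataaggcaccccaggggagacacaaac
Slc22a12: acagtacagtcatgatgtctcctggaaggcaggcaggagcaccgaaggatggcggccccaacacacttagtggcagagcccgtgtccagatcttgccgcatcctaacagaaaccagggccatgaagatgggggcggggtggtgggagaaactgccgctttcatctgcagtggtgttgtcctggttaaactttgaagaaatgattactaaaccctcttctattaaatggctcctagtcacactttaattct
Slc22a19: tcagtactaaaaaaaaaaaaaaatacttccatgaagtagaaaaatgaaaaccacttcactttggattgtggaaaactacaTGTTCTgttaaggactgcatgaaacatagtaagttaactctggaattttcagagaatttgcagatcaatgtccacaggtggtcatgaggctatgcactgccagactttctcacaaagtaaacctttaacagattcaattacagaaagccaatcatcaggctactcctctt

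Promoter windows were found for 8 of the 9 genes, all but Slc22a7. GTTAAT, a core of sites bound by hepatocyte nuclear factor 1, was present in 2 of these 8 windows, against 6.43% of 32851 promoter windows of the same length. It lay 56 to 51 bases before the start of Slc22a6 and 81 to 76 bases before that of Slc22a8. AGAACA, a core of androgen and glucocorticoid receptor sites, was present in 1 of 8 (Slc22a19, on the minus strand of the gene, 170 to 165 bases before the start), against 16.1% of all windows. AGGTCA, a core of nuclear receptor sites, was in 0 of 8, against 4607 of all 32851 windows. Slc22a12 held none of the 3 sequences in this window. These are matches of letters only.

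The arrays held kidney RNA by their markers. The mean of 18 proximal tubule markers lay between 11.89 and 12.37 in knockout kidneys and between 11.84 and 12.32 in wild-type kidneys. Grhl1 itself read 4.40 to 4.92 in knockout kidneys and 4.96 to 5.25 in wild-type kidneys (limma adjusted p = 0.113, exact permutation p = 0.000311). Its probe set was dim, below the median of every array (5.51 at the lowest) in both genotypes. Some kidneys stood apart in ways that genotype does not name. The mean of 3 Y-linked genes was 3.96 to 4.26 in 5 kidneys (knockout replicates 13, 14 and 15, wild-type replicates 6 and 7) and 8.37 to 8.68 in the other 10. Liver markers averaged 8.50 to 10.68 in 3 kidneys (knockout replicate 10, wild-type replicates 3 and 7), against 6.24 to 6.56 in the other 12. Adrenal cortex markers averaged 7.04 to 9.29 in 6 kidneys (knockout replicates 10 to 13, wild-type replicates 2 and 3), against 4.56 to 4.93 in the other 9.

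No transporter of the 9 differed between genotypes by limma across all probe sets at an adjusted p under 0.05, and 0 had an unadjusted p under 0.05. The share of all probe sets called was 0.0128% (3 of 23521). The values of knockout and wild-type kidneys overlapped for all 9, and 0.123% of all probe sets did not overlap. The knockout mean was higher for 5 transporters and lower for 4, with differences from -0.13 to 0.11. The median size of the difference was 0.06 for the 9 and 0.05 over all probe sets tested. Each RNA was made from whole tissue, so fewer cells of a type and less RNA per cell cannot be told apart. The p-values measure the spread between these mice, which includes the gap between kidneys with and without Y-linked transcripts. Adding each kidney's Y-linked mean to the fit lowered the SE from 0.22 to 0.05 for Slc22a6 and from 0.20 to 0.06 for Slc22a19. It lowered that of Slc22a13 from 0.20 to 0.07 and that of Slc22a2 from 0.11 to 0.04. The SEs of Slc22a4 (0.07) and Slc22a5 (0.05) hardly changed. In that fit 0 of the 9 passed (smallest limma adjusted p = 0.693). The intervals below come from the fit without this mean.

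Among the basolateral uptake carriers, Slc22a6 read 11.72 at the lowest, 12.60 at the median and 12.66 at the highest in knockout kidneys, against 11.50, 12.57 and 12.73 in wild-type kidneys. Both groups held a low and a high set of kidneys, and the groups overlapped. The means were 12.33 ± 0.41 in knockout kidneys (SD, n = 8) and 12.32 ± 0.51 in wild-type kidneys (SD, n = 7). The difference was 0.0096 (SE 0.22, limma adjusted p = 0.999, exact permutation p = 0.974), with a 95% interval that reached from 0.732-fold to 1.38-fold. Slc22a8 read 12.42, 12.59 and 12.89 in knockout kidneys, against 12.49, 12.55 and 12.83 in wild-type kidneys. Its ranges nearly coincided, and the difference was 0.0096 (SE 0.08, limma adjusted p = 0.998). Slc22a2 read 12.02, 12.44 and 12.55 in knockout kidneys, against 11.98, 12.51 and 12.60 in wild-type kidneys. The organic cation carrier differed by -0.07 (SE 0.11, limma adjusted p = 0.997, exact permutation p = 0.584).

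On the apical side, Slc22a12 read 11.43, 12.08 and 12.20 in knockout kidneys, against 11.26, 12.20 and 12.29 in wild-type kidneys (lowest, median and highest). The means of this urate carrier were 11.90 ± 0.33 in knockout kidneys and 12.02 ± 0.38 in wild-type kidneys, and the difference was -0.13 (SE 0.17, limma adjusted p = 0.997, exact permutation p = 0.497). It was -0.25 without wild-type replicate 6 and -0.06 without knockout replicate 13. Slc22a13 read 9.98, 10.26 and 10.90 in knockout kidneys, against 10.06, 10.30 and 11.14 in wild-type kidneys. Slc22a19 read 10.97, 11.31 and 12.0003 in knockout kidneys, against 11.08, 11.30 and 12.03 in wild-type kidneys. Neither OAT10 nor OAT5 passed, at differences of -0.05 (SE 0.20) and 0.06 (SE 0.20), and their 95% intervals reached from 0.722-fold to 1.28-fold for Slc22a13 and from 0.780-fold to 1.40-fold for Slc22a19. Slc22a7, whose product OAT2 lies in the apical membrane of the proximal tubule in rodents, read 9.89, 10.12 and 10.27 in knockout kidneys, against 9.79, 9.90 and 10.36 in wild-type kidneys. Its difference of 0.11 (SE 0.09, limma adjusted p = 0.984, exact permutation p = 0.301) lay within the spread of either group.

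Of the 9, the carnitine carrier Slc22a5 had the smallest SD in both groups, 0.07 in knockout and 0.12 in wild-type kidneys. It read 10.76, 10.84 and 10.97 in knockout kidneys, against 10.75, 10.82 and 11.09 in wild-type kidneys, and its difference was -0.03 (SE 0.05, limma adjusted p = 0.997). The 95% interval for OCTN2 ran from 0.909-fold to 1.06-fold. Slc22a4 read 8.95, 9.06 and 9.20 in knockout kidneys, against 8.84, 8.96 and 9.37 in wild-type kidneys. The difference of OCTN1 was 0.07 (SE 0.07, limma adjusted p = 0.984, exact permutation p = 0.317), and the highest kidney of all was wild-type replicate 6, without which the difference was 0.13.

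**Figure D1:**
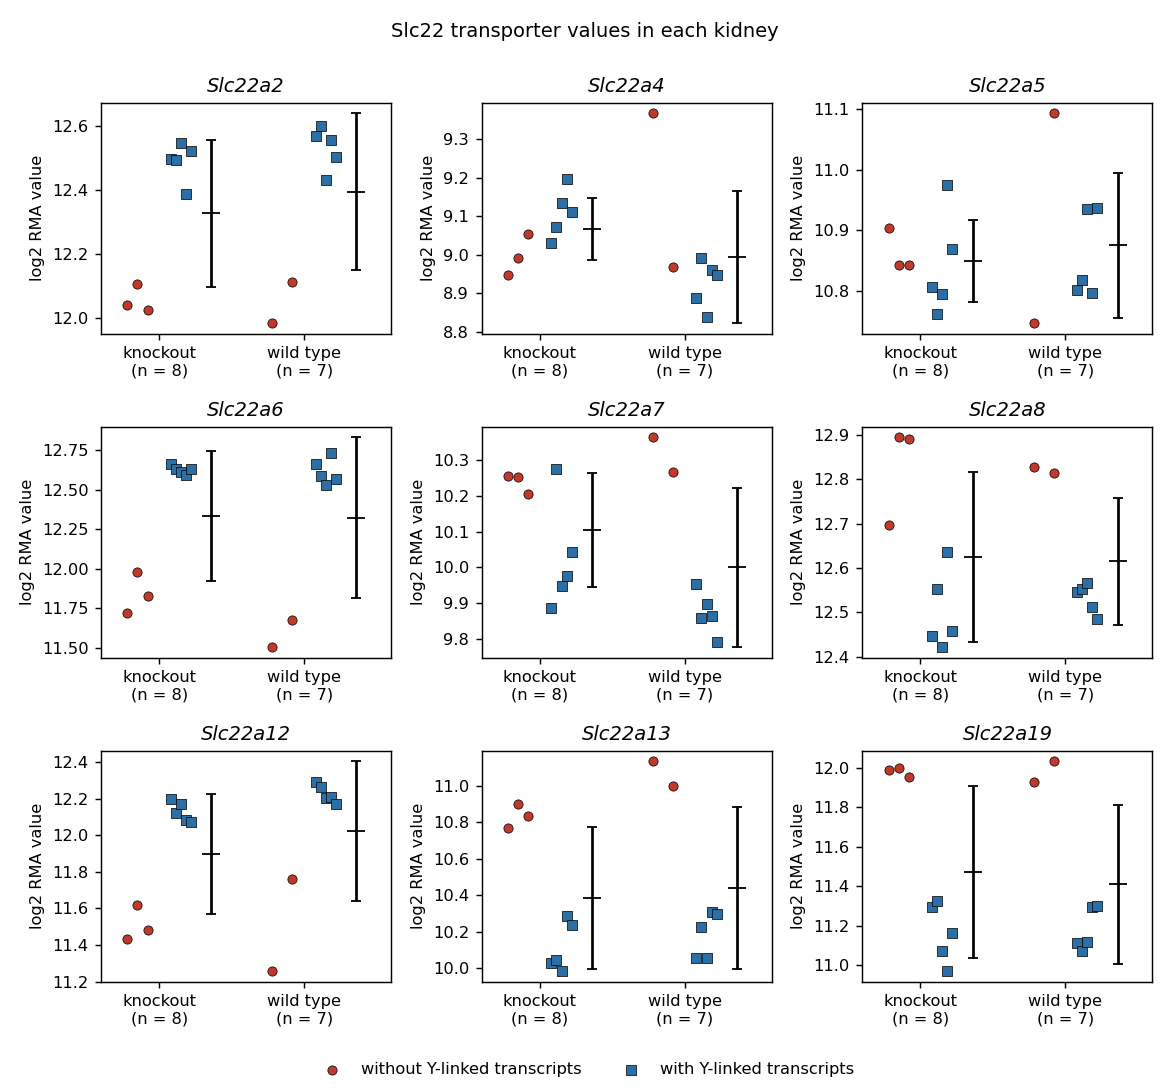
Log2 RMA value (vertical axis, a separate scale for each panel) of each of the 9 transporters in every kidney, 8 knockout and 7 wild type; circles are the 5 kidneys without and squares the 10 with Y-linked transcripts, and bars are the group mean ± SD. Genotypes overlap in all 9 panels, while circles and squares are apart for Slc22a2, Slc22a6, Slc22a8, Slc22a12, Slc22a13 and Slc22a19.

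Within each genotype, kidneys with and without Y-linked transcripts stood apart for most of the transporters. For 6 of the 9 transporters, the 5 kidneys without Y-linked transcripts did not overlap the 10 with them, 3 lower and 3 higher. Over all probe sets, 11.5% did not overlap, 4.69% lower and 6.82% higher in kidneys without these transcripts. The median size of the difference between the class medians was 0.47 for the 9 transporters and 0.09 over all probe sets. The classes were read from the arrays and are no group of the study, so the values are a description and no test was made between them. Within knockout kidneys alone, 6 of 9 did not overlap (22.8% of all probe sets), and within wild-type kidneys alone 7 of 9 (30.3%). The sources used here do not give the sex of the mice.

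Slc22a6 was lower in every kidney without Y-linked transcripts. OAT1 read 11.72, 11.98 and 11.83 in knockout replicates 13 to 15 and 11.50 and 11.67 in wild-type replicates 6 and 7, against 12.53 to 12.73 with a median of 12.62 in the 10 kidneys with them. The medians differed by -0.90, or 1.87-fold lower, and by -0.80 within knockout and -1.001 within wild-type kidneys. Slc22a2 followed the same order with a smaller gap. OCT2 read 12.04, 12.11 and 12.02 in knockout replicates 13 to 15 and 11.98 and 12.11 in wild-type replicates 6 and 7, against 12.39 to 12.60 with a median of 12.51 (1.39-fold lower). Slc22a12, the apical urate exchanger, was the third lower gene. URAT1 read 11.43, 11.62 and 11.49 in knockout replicates 13 to 15 and 11.26 and 11.76 in wild-type replicates 6 and 7, against 12.07 to 12.29 with a median of 12.18 (1.62-fold lower).

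Slc22a19, Slc22a13 and Slc22a8 ran the other way. OAT5 (Slc22a19) read 11.99, 12.0003 and 11.95 in knockout replicates 13 to 15 and 11.93 and 12.03 in wild-type replicates 6 and 7, against 10.97 to 11.33 with a median of 11.14 in the kidneys with Y-linked transcripts. The 5 higher kidneys lay within a narrow band, and the medians differed by 0.85 (1.80-fold higher). OAT10 (Slc22a13) read 10.77, 10.90 and 10.83 in knockout replicates 13 to 15 and 11.14 and 11.001 in wild-type replicates 6 and 7, against 9.98 to 10.31 with a median of 10.14 (1.69-fold higher). Slc22a8 had the smallest gap of the 6. OAT3 read 12.70, 12.89 and 12.89 in knockout replicates 13 to 15 and 12.83 and 12.81 in wild-type replicates 6 and 7, against 12.42 to 12.64 with a median of 12.53 (1.23-fold higher). With each array centred on the median of its named probe sets, the direction of Slc22a8 was the same (0.27) but its classes touched, so 5 of 9 did not overlap. The share of all probe sets after centring is not given here.

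The neighbours Slc22a6 and Slc22a8, which carry overlapping sets of anions, lay in opposite directions. Within each array, the Slc22a6 value minus the Slc22a8 value was -1.32 to -0.92 (median -1.06) in kidneys without Y-linked transcripts and -0.04 to 0.22 (median 0.10) in kidneys with them. This difference compares the kidneys and not the amounts of the 2 transcripts, which different probes read. The apical pair Slc22a12 and Slc22a13 showed the same kind of shift. Slc22a12 minus Slc22a13 was 0.12 to 0.76 without and 1.80 to 2.24 with Y-linked transcripts.

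The remaining 3 transporters overlapped. Slc22a7 read 10.26, 10.25 and 10.20 in knockout replicates 13 to 15 and 10.36 and 10.27 in wild-type replicates 6 and 7, against 9.79 to 10.27 with a median of 9.92 in the others. The overlap came from knockout replicate 9 alone, at 10.27, and without that kidney 7 of 9 transporters did not overlap. Leaving out a kidney can only keep or raise such a count, and the share of all probe sets without it is not given here. Slc22a5 and Slc22a4 had nearly equal class medians, with differences of 0.03 and -0.02. OCTN1 ran in opposite directions within the genotypes, at -0.12 within knockout and 0.22 within wild-type kidneys, and those values overlapped.

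Some proximal tubule markers differed between the Y-linked classes too. Of 18, 4 were lower, 2 higher and 12 overlapping, against 4.69% lower and 6.82% higher over all probe sets. Their mean was 11.84 to 11.95 without and 12.25 to 12.37 with Y-linked transcripts. The list holds Slc7a13, an amino acid transporter of the late proximal tubule, at 6.13 to 6.82 without and 12.67 to 12.86 with these transcripts. Without Slc7a13 the mean of the other 17 overlapped, at 12.17 to 12.28 without and 12.21 to 12.35 with Y-linked transcripts. The other lower markers were Cyp4b1 (11.08 to 11.80 without, 13.21 to 13.38 with), Slc16a9 and Slc27a2, and the higher ones were Slc5a2 and Slc5a12. Among the 12 that overlapped, the endocytic receptor Lrp2 read 12.57 to 12.70 without and 12.56 to 12.78 with Y-linked transcripts. All 4 podocyte markers were higher (means 8.46 to 8.70 without and 8.07 to 8.29 with), as were 2 of 6 thick ascending limb, 3 of 9 distal tubule and collecting duct, 2 of 6 endothelial and 1 of 5 immune markers, and none of these lists had a lower member. The share of all probe sets that were higher was 6.82%, and counts such as 1 of 5 rest on few genes. All 7 genes of a list of male-biased kidney genes were lower, and of 4 female-biased ones 3 were higher and 1 lower in kidneys without Y-linked transcripts. The part of cell makeup in the transporter values was not tested. Without the kidneys that held liver transcripts the same 6 transporters did not overlap, and the share of all probe sets in those kidneys is not given here.

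The genotype comparison was repeated within the Y-linked classes. Among the 10 kidneys with Y-linked transcripts, Slc22a4 read 9.03, 9.07, 9.13, 9.20 and 9.11 in knockout replicates 8 to 12 and 8.89, 8.99, 8.84, 8.96 and 8.95 in wild-type replicates 1 to 5. Every knockout value was above every wild-type value. The difference of OCTN1 was 0.18 (SE 0.05, 95% interval 0.07 to 0.29), with an exact permutation p of 0.00794 over 252 splits and a limma adjusted p of 0.442 over all probe sets, so it missed the threshold. That permutation p is the lowest these equal groups allow, and any gene without overlap reaches it, so it only restates the order. Slc22a4 was the only one of the 9 without overlap here, against 1.73% of all probe sets. Adrenal cortex transcripts were present in knockout replicates 10 to 12 and wild-type replicates 2 and 3 of this class. The kidneys without them read 9.03 and 9.07 in knockout replicates 8 and 9 and 8.89 to 8.96 in wild-type replicates 1, 4 and 5. Any part of groups that do not overlap keeps their order, so the part of adrenal RNA was not tested.

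Slc22a7 differed by 0.15 in these 10 kidneys (SE 0.07, exact permutation p = 0.0397, limma adjusted p = 0.663), and Slc22a12 by -0.10 (SE 0.05, exact permutation p = 0.0159, limma adjusted p = 0.650). Both had overlapping values. Among the 5 kidneys without Y-linked transcripts, 3 knockout and 2 wild type, an exact permutation test cannot give a p under 0.1. Slc22a6 (0.25, limma adjusted p = 0.693), Slc22a7 (-0.08, limma adjusted p = 0.813) and Slc22a13 (-0.23, limma adjusted p = 0.643) did not overlap there, 3 of 9 against 24.7% of all probe sets. Slc22a4 read 8.95, 8.99 and 9.06 in knockout kidneys, against 9.37 and 8.97 in wild-type kidneys, a difference of -0.17. The genotype differences of OCTN1 in the 2 classes were not shown to differ (interaction -0.35, limma adjusted p = 0.593).

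**Figure D2:**
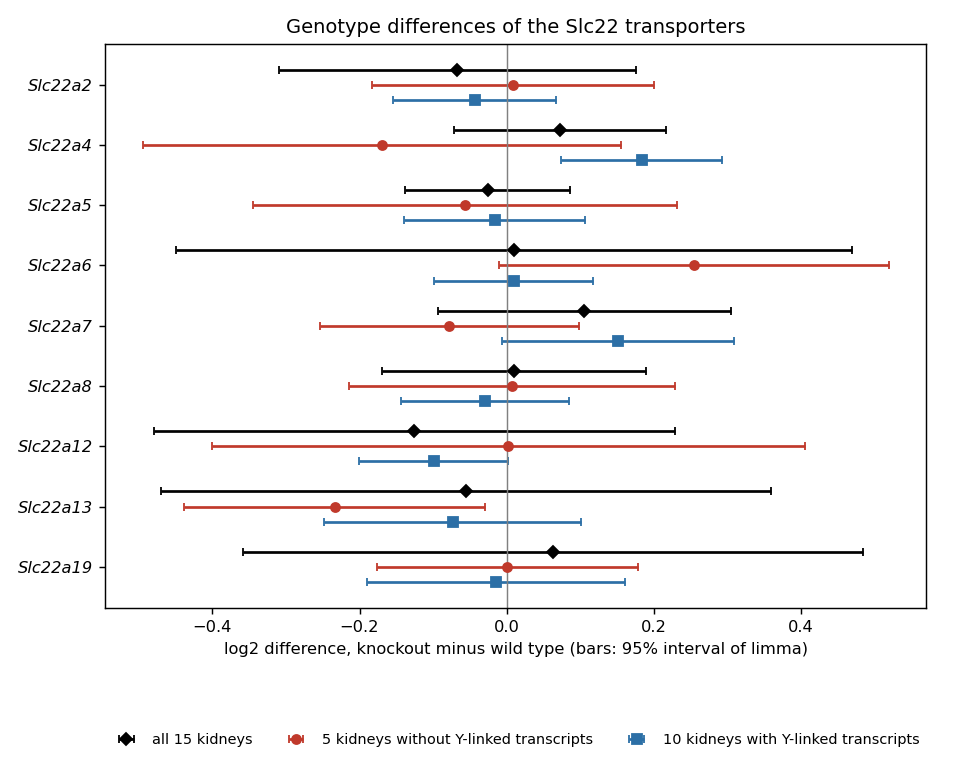
Log2 difference, knockout minus wild type (horizontal axis), for each transporter in all 15 kidneys (diamonds), in the 5 without (circles) and the 10 with Y-linked transcripts (squares); bars are 95% intervals of limma, not adjusted for the number of probe sets. Over all 15 kidneys every interval holds 0, and within the 10 kidneys the interval of Slc22a4 is 0.07 to 0.29.

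Within the 10 kidneys with Y-linked transcripts, pairs of the 9 transporters were tested for co-variation. Of 36 pairs, 0 passed after Benjamini-Hochberg adjustment by a permutation test with 100000 resamples (smallest adjusted p = 0.375), and 3 had an unadjusted p under 0.05. Pearson's r was positive in 18 pairs and negative in 18, with a median of -0.0043. The strongest pair was Slc22a4 with Slc22a12 (r = -0.74, permutation p = 0.0155, adjusted p = 0.375, rho = -0.76 with permutation p = 0.0145, and r = -0.75 without the 2 farthest kidneys). This pair had r = -0.30 centred on each genotype's mean and -0.04 after regression on the proximal tubule mean. It had r = -0.86 without the kidneys that held liver transcripts and -0.77 over all 15 kidneys centred on genotype and Y-linked class (adjusted p = 0.105). Slc22a2 and Slc22a5 had r = -0.71 (permutation p = 0.0208, adjusted p = 0.375, rho = -0.39 with permutation p = 0.264), and without the 2 farthest kidneys r = -0.57. That pair had r = -0.82 centred on genotype and -0.15 over the 15 kidneys centred on genotype and Y-linked class. Slc22a5 and Slc22a6 had r = -0.65 (permutation p = 0.0427, adjusted p = 0.513, rho = -0.58 with permutation p = 0.0900), and r = -0.02 over the 15 centred kidneys.

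**Figure D3:**
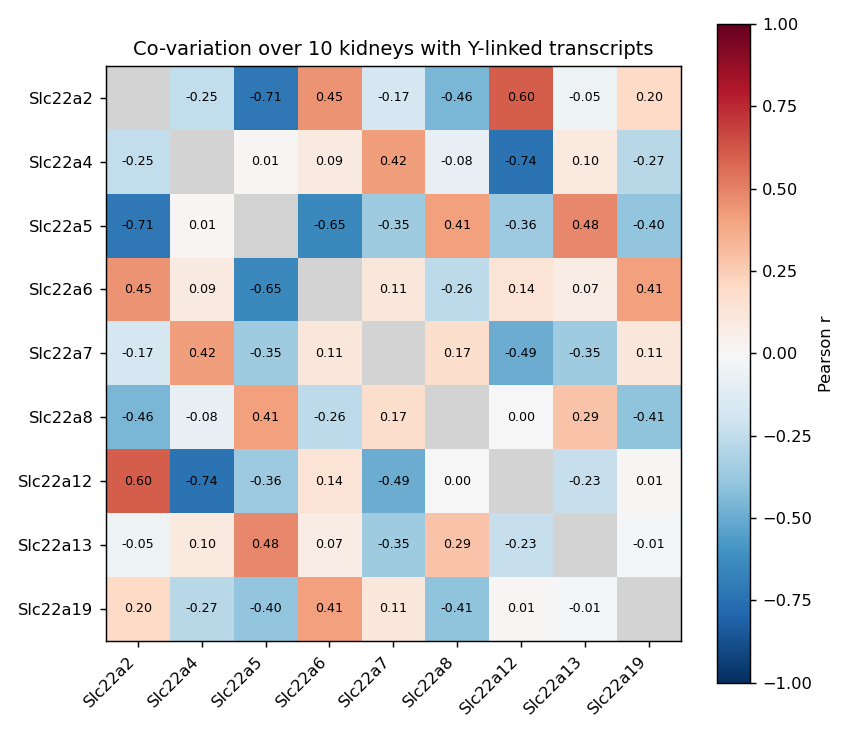
Pearson r between the log2 values of each pair of transporters over the 10 kidneys with Y-linked transcripts (colour and number; rows and columns are the 9 transporters). The lowest is -0.74 for Slc22a4 with Slc22a12, and 0 of 36 pairs passed after adjustment.

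Over the same 10 kidneys, the genes most like each transporter were taken from 11393 genes brighter than the median. These r values are the highest of a large search over 10 arrays that share their normalization, and they are given without a test. Slc22a6 was closest to the proteasome gene Psmd6 (r = 0.95) and to Pnrc2 (0.93), and Slc22a8 to the ribonuclease subunit Rnaseh2a (0.90) and to Wdr74 (0.87). Slc22a2 was closest to the cadherin Cdh11 (r = 0.89) and 4933421O10Rik (0.89), and Slc22a7 to the adaptor subunit Ap1m1 (0.90) and superoxide dismutase Sod1 (0.88). Slc22a12 was closest to the reductase Cyb5r3 (r = 0.93) and Hgs (0.93), Slc22a13 to the splicing factor Prpf4 (0.93) and Stk40 (0.91), and Slc22a19 to Rrn3 (0.95) and Zfp729b (0.95). Slc22a4 was closest to 2900092D14Rik (r = 0.96) and the potassium-chloride cotransporter Slc12a7 (0.96), and Slc22a5 to Rin3 (0.93) and the receptor Hcar1 (0.92).

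The rest of the Slc22 family held 14 measured genes. By genotype 0 of 14 passed limma and 0 had an unadjusted p under 0.05, with 8 higher and 6 lower in knockout kidneys. The smallest unadjusted p values belonged to Slc22a21, a carnitine carrier that lies between Slc22a5 and Slc22a4, and to Slc22a16. Slc22a21 was 6.61 ± 0.28 in knockout and 6.42 ± 0.13 in wild-type kidneys (limma adjusted p = 0.958). Slc22a16 was 5.13 ± 0.05 in knockout and 5.08 ± 0.11 in wild-type kidneys (limma adjusted p = 0.989).

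Kidneys without Y-linked transcripts did not overlap those with them for 6 of the 14, 3 lower and 3 higher, against 4.69% lower and 6.82% higher over all probe sets. The next genes are named after their values were seen. Slc22a30 read 4.004 to 4.48 without and 6.65 to 7.61 with Y-linked transcripts, Slc22a28 read 8.35 to 8.61 without and 10.78 to 11.04 with, and Slc22a22, a prostaglandin carrier, read 9.54 to 9.78 without and 10.92 to 11.21 with. The opposite order held for Slc22a29 (5.71 to 6.35 without, 2.63 to 3.77 with), Slc22a27 (4.35 to 5.59 without, 3.13 to 3.71 with) and Slc22a23 (10.67 to 10.78 without, 10.03 to 10.54 with). On chromosome 19 the genes Slc22a19, Slc22a26, Slc22a27, Slc22a28, Slc22a29, Slc22a30, Slc22a8 and Slc22a6 are consecutive among protein-coding genes. Slc22a28, Slc22a30 and Slc22a6 were lower, Slc22a19, Slc22a27, Slc22a29 and Slc22a8 were higher, and Slc22a26 overlapped. The direction thus alternated from Slc22a27 to Slc22a6. Slc22a27 and Slc22a29 with Y-linked transcripts, and Slc22a30 without, were dim, below the median of every array (5.51 at the lowest). These paralogs are alike in sequence, and how far their probes cross-hybridise is not known here.

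**Figure D4:**
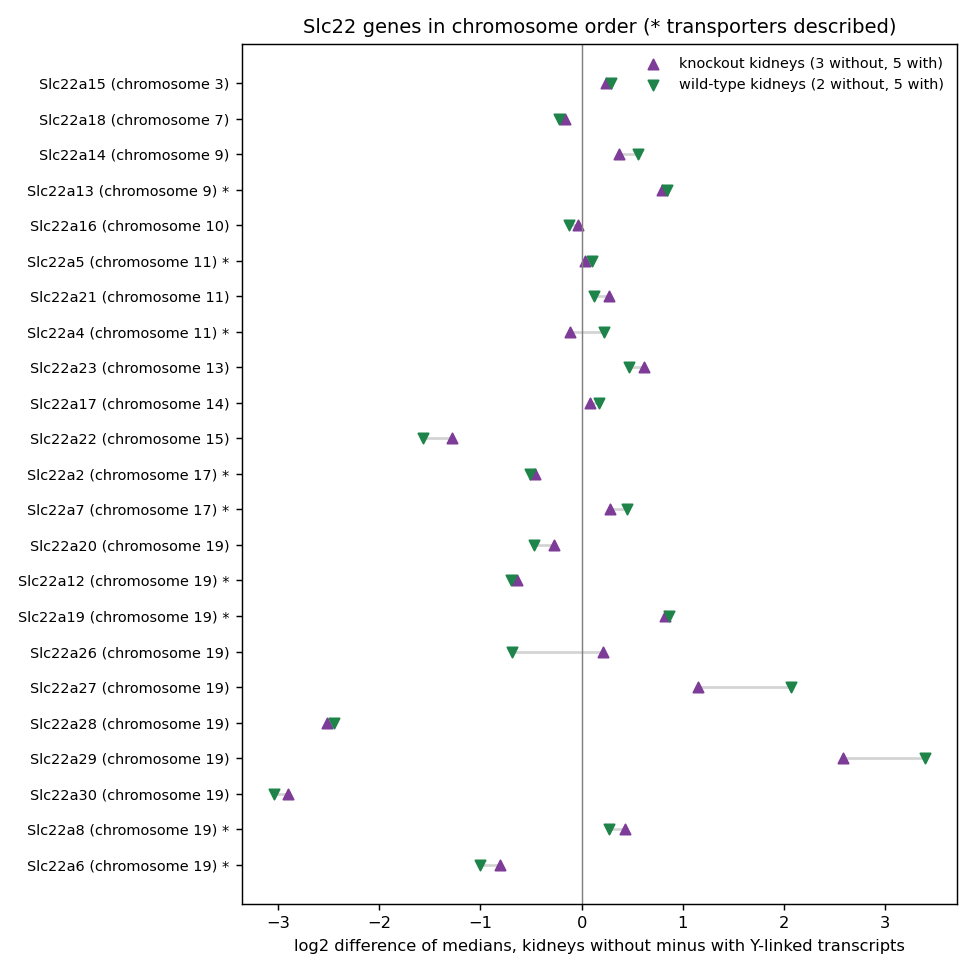
Difference of medians, kidneys without minus kidneys with Y-linked transcripts (horizontal axis, log2), for 23 Slc22 genes in chromosome order, separately in knockout (upward triangles, 3 without and 5 with) and wild-type kidneys (downward triangles, 2 without and 5 with); asterisks mark the 9 transporters. The medians of Slc22a6 differ by -0.80 and -1.001 and those of Slc22a19 by 0.83 and 0.86 in knockout and wild-type kidneys.

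Genes that work beside these carriers were read in 4 lists, and 0 genes passed limma by genotype in any of them, with 1 (Hnf4a) at an unadjusted p under 0.05. On the basolateral side, the dicarboxylate importer Slc13a3, which feeds the exchange of OAT1 and OAT3, was 12.27 ± 0.12 in knockout and 12.38 ± 0.11 in wild-type kidneys (limma adjusted p = 0.950). The aromatic amino acid carrier Slc16a10 was 9.93 ± 0.18 in knockout and 9.84 ± 0.20 in wild-type kidneys (limma adjusted p = 0.989). On the apical side, the organic anion carrier Slco1a6 was 10.98 ± 0.12 in knockout and 11.12 ± 0.15 in wild-type kidneys (limma adjusted p = 0.937). The monocarboxylate carrier Slc5a12 was 12.18 ± 0.15 in knockout and 12.04 ± 0.19 in wild-type kidneys (limma adjusted p = 0.973).

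Among regulators and scaffolds, Hnf4a, a nuclear receptor of proximal tubule and liver that acts on Slc22 promoters, had the smallest p. It read 11.96, 12.08 and 12.15 in knockout kidneys, against 12.06, 12.19 and 12.25 in wild-type kidneys (lowest, median and highest). The groups overlapped, and the difference of -0.10 (SE 0.04) had a limma adjusted p of 0.889 and an exact permutation p of 0.0157. The kinase Sgk1 was 8.88 ± 0.21 in knockout and 9.14 ± 0.36 in wild-type kidneys (limma adjusted p = 0.937). In organic anion metabolism, the urate oxidase Uox was 3.78 ± 0.59 in knockout and 4.49 ± 1.47 in wild-type kidneys (limma adjusted p = 0.976). Its medians, 3.59 and 3.77, were close and dim, below the median of every array (5.51 at the lowest). The highest wild-type value, 7.67, came from replicate 6 or 7, of which replicate 7 held liver transcripts. The part of liver RNA in that value was not tested. The carnitine palmitoyltransferase Cpt2 was 11.25 ± 0.09 in knockout and 11.31 ± 0.16 in wild-type kidneys (limma adjusted p = 0.987).

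Across the Y-linked classes, 3 of 7 basolateral, 10 of 16 apical, 6 of 16 regulator and 4 of 11 metabolic genes did not overlap, against 11.5% of all probe sets, and the examples here were also picked after their values were seen. Of the 10 apical genes, 7 were lower and 3 higher in kidneys without Y-linked transcripts. Several apical exit carriers were among the lower ones, as Slc22a6 and Slc22a2 were among the transporters. The cation exporter Slc47a1 read 11.66 to 11.77 without and 12.07 to 12.23 with these transcripts, and Abcc2, an efflux pump, read 10.85 to 11.05 without and 11.24 to 11.46 with. The urate and anion carriers Slc17a1 (11.52 to 11.69 without, 12.15 to 12.24 with) and Slc17a3 (10.96 to 11.38 without, 11.79 to 11.98 with) were lower too. Slco1a1, an organic anion uptake carrier, had the widest gap of the apical list, at 4.13 to 4.70 without and 10.84 to 11.63 with. The efflux pumps Abcc3 of the basolateral membrane (10.19 to 10.55 without, 5.94 to 6.36 with) and Abcc4 (9.44 to 10.01 without, 8.13 to 8.62 with) were higher. So was Abcb1a of the apical list (7.12 to 7.52 without, 6.07 to 6.75 with). Of the monocarboxylate carriers, whose substrates urate exchangers use as counter-ions, Slc5a8 was lower (11.17 to 11.33 without, 12.10 to 12.33 with) and Slc5a12 higher (12.23 to 12.44 without, 11.85 to 12.22 with). Among regulators, the repressor Bcl6 was lower (7.80 to 8.34 without, 8.87 to 10.24 with) and the xenobiotic receptor Nr1i2 higher (7.66 to 8.20 without, 6.59 to 7.57 with). All 4 metabolic genes that did not overlap were lower, among them Crot (10.85 to 11.27 without, 11.61 to 11.96 with), which passes fatty acids from coenzyme A to carnitine.

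**Figure D5:**
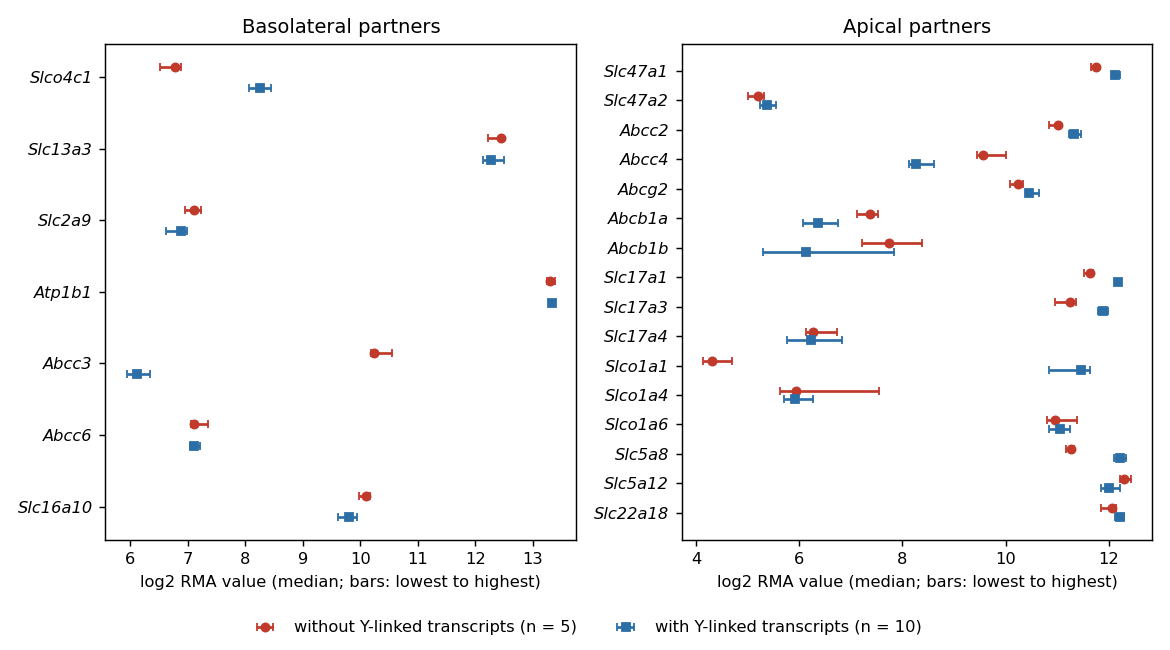
Log2 RMA values (horizontal axis) of the 7 basolateral and 16 apical partner genes; points are medians and bars run from the lowest to the highest kidney, for the 5 kidneys without (circles) and the 10 with Y-linked transcripts (squares). Slco1a1 lies at 4.13 to 4.70 without and 10.84 to 11.63 with, and Abcc3 at 10.19 to 10.55 without and 5.94 to 6.36 with.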

How the data were processed

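Kidney RNA of 15 mice was measured on 1-colour arrays. The authors deposited log2 values for 41345 probe sets, made with RMA per the submitters' processing notes; software version and array build are not given in the sources used here. RMA equalises the arrays, so a shift of most transcripts would be removed, and dim probe sets are compressed. The number of arrays limits the precision. Groups came from the labels' genotype. Symbols came from the platform annotation, updated by Entrez ID for 23328 of 23521 probe sets; 1814 probe sets with several symbols and 16010 without one were left out. Genotypes were compared by limma 3.58.1 (lmFit, eBayes) in R 4.3.3 without covariates on all 15 samples. Benjamini-Hochberg adjustment ran over 23521 probe sets, with a threshold of 0.05. The fit was checked on simulated data whose spread left out the Y-linked classes. That check therefore does not cover genes that differ between the classes. Exact permutation tests used 6435 splits (smallest p 0.000155). All tests were two-sided. A gene was read from its brightest probe set.

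A kidney counted as holding Y-linked transcripts above the midpoint of that list's range, and liver or adrenal cortex transcripts at over 1 log2 unit above the list's median. The transporters and the lists (157 of 181 genes measured) were chosen with earlier results of these data known. Named were the 9 transporters, in each partner list up to 4 genes past the threshold or otherwise the 2 with the smallest p, marker genes beside a result, and the 2 genes most correlated with each transporter; others are marked as chosen after their values were seen. Promoters are RefSeq's of GRCm38.p6, used without array coordinates.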

Additional observations from a re-analysis of the deposited data

Results flagged for a closer look

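Slc22a4, the ergothioneine carrier, stood out in 1 wild-type kidney: replicate 6 read 9.37, and the nearest of the other 6 wild-type kidneys read 8.99. The gap was 0.711 of the group's range, above Dixon's critical value of 0.568 for 7 samples. This was 1 of 36 groups of values examined, and chance alone marks about 1 in 20. The kidney is 1 of the 5 without Y-linked transcripts, and without it the genotype difference of Slc22a4 was 0.13, against 0.07 with it.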

How the results depend on the processing

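The count of transporters past the threshold by genotype was 0 in all 27 alternatives. The exact rank-sum test called 0 of all 23521 probe sets (smallest adjusted p 0.252), so its 0 carries no information. The same holds for limma on probe sets brighter than the median, with 0 of 11760 called (smallest adjusted p 0.0514). The other alternatives called between 1 and 30 probe sets in all, so a 0 among the transporters says little there too. The count of partner genes past the threshold was 0 in all 17, and that of co-varying pairs was 0 in all 15. The count of transporters whose genotypes do not overlap became 1 (Slc22a4) with only the samples with Y-linked transcripts. The count of transporters that do not overlap between the Y-linked classes, 6, lay between 5 (arrays centred on their median) and 7 (wild-type kidneys only, or without knockout replicate 9). The share of all probe sets is given only for all 15 kidneys (11.5%), knockout kidneys (22.8%) and wild-type kidneys (30.3%). The small genotype differences changed sign under some settings, and the cause was not tested. Among kidneys without Y-linked transcripts they were 0.0088 for Slc22a2, -0.17 for Slc22a4, -0.078 for Slc22a7 and 0.0024 for Slc22a12, and among those with them -0.030 for Slc22a8 and -0.014 for Slc22a19. Without the kidneys that held liver transcripts they were 0.037 for Slc22a5, -0.12 for Slc22a6 and 0.038 for Slc22a13. With the proximal tubule mean, which holds Slc7a13, as a covariate Slc22a6 was -0.047, and with the Y-linked mean Slc22a8 was -0.012. Leaving out each mouse in turn gave -0.047 to 0.010 for Slc22a5, -0.13 to 0.097 for Slc22a6, -0.029 to 0.045 for Slc22a8, -0.13 to 0.061 for Slc22a13 and -0.013 to 0.17 for Slc22a19, and, without a change of sign, -0.14 to -0.024 for Slc22a2, 0.047 to 0.13 for Slc22a4, 0.071 to 0.17 for Slc22a7 and -0.25 to -0.059 for Slc22a12. No paired analysis was possible because the groups share no replicate number. The alternatives for the Y-linked classes and the interaction were chosen after seeing the data. Signal over background could not be read from the deposited values.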
